A study of Mus musculus with 2 samples.

Results

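The genes described here are the mouse microRNA genes numbered Mir3057 to Mir3113, leaving out Mir3065. Within that range of numbers they were taken by symbol alone, from the GENCODE M21 names of the gene IDs in the count tables, and 57 of the 2202 microRNA genes carried such a symbol. MicroRNA sequencing of short RNAs was done on 2 libraries of left cerebral cortex from male B6CASTF1/J mice aged 14 days. B6CASTF1/J mice are the hybrid offspring of C57BL/6J and CAST/EiJ parents. Both libraries belong to 1 group, biological replicates 1 and 2, and the labels name neither a treatment nor a second genotype, so no conditions can be compared. They share a donor label and have separate tissue records. Whether they came from different animals, or from pooled tissue, is not stated, and the spread between them may be technical.

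A microRNA gene encodes a hairpin RNA. Drosha cuts the hairpin from the primary transcript, Dicer cuts it again, and a strand from either arm is loaded into an Argonaute protein. The loaded strand finds messenger RNAs mainly through its seed, bases 2 to 8. MicroRNAs are numbered in order of registration, so a gene with a higher number was generally annotated later, often from deeper sequencing than the first. Several genomic settings matter below. A hairpin can be read from the strand opposite an older hairpin, it can lie in the same transcript as an older one, or it can sit at the end of an intron, where splicing rather than Drosha makes one end of it or, in a mirtron, both ends.

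RefSeq (GRCm38.p6, the mm10 assembly) listed a mature form for 53 of the 57 genes and a hairpin for 49, and all 49 hairpins lay at the positions of the GENCODE genes. The sequences that carry the findings are printed 5′ to 3′ with the seed in capitals. The 4 most abundant genes come first, since they held most of the counts; both arms are given because the deposited counts are per hairpin and do not separate arms.
miR-3099-5p: cCAGCUUCcuuccagcccuug
miR-3099-3p: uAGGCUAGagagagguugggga
miR-3102-5p: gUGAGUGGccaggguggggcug
miR-3102-5p.2-5p: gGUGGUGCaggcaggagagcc
miR-3102-3p.2-3p: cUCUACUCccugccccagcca
miR-3102-3p: gAGCACCCcauuggcuacccaca
miR-3072-5p: aGGGACCCcgagggagggcagg
miR-3072-3p: uGCCCCCUccaggaagccuucu
miR-3059-5p: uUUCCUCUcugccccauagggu
miR-3059-3p: cCUCUAGGgaagagaagguugg
Mir3102 has 4 mature forms where a hairpin usually has 1 or 2. Of these 10 forms, 2 shared their seed with another mature form in the RefSeq table: miR-3102-5p with miR-702-5p (UGAGUGG) and miR-3059-5p with the later-numbered miR-5616-5p (UUCCUCU).

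Few seeds were shared within the group. miR-3064-5p and miR-3085-3p, from unrelated positions on chromosomes 11 and 19, had the same seed, CUGGCUG. The paralogs Mir3070a and Mir3070b shared the 3p seed GGUGCUA and an identical 5p form.
miR-3064-5p: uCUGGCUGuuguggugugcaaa
miR-3085-3p: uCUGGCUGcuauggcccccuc
miR-3070-3p (Mir3070a): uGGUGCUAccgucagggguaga
miR-3070-2-3p (Mir3070b): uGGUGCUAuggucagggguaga
miR-3070-5p (both): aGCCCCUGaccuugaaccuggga
Besides miR-3102-5p, a seed held in common with an older microRNA occurred for 1 form, miR-3091-3p with miR-2861 (GGGCCUG).

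Replicate 1 held 11224232 reads and replicate 2 held 8758378, and 4111167 and 3189903 of these were assigned to microRNA genes on the gene's strand. Reads that matched several genomic positions, 39.1% and 41.4% of the reads, were given to no gene. Of the 57 genes, 9 hold a stretch of 18 bases found at another position among the microRNA hairpins, on either strand, or a mature form listed by RefSeq at a second locus. Their counts can be too low and are called uncertain: Mir3070a, Mir3070b, Mir3074-1, Mir3074-2, Mir3084-1, Mir3098, Mir3107, Mir3110 and Mir3113. The tissue label was checked on microRNAs known for particular cells. The 12 neuron-associated genes summed to 48208 and 56289 CPM (counts scaled to a total of 1000000 per library), with 8 detected, the 2 oligodendrocyte genes to 2855 and 2521, the endothelial Mir126a to 10449 and 13176, 3 leukocyte genes to 958 and 884 and 3 erythrocyte genes to 75.9 and 112. Markers known from other tissues were present too, choroid plexus Mir204 at 582 and 727 CPM and liver Mir122 at 51.8 and 48.0, while 4 muscle genes, all with copies elsewhere, had 0 counts.

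Detection split the genes into 4 bands. Detection required 10 counts or more in both libraries, which is 2.43 CPM in replicate 1 and 3.13 CPM in replicate 2, and 25 of the 57 (43.9%) were detected. The share over all 2202 microRNA genes was 18.4%, but that background holds many genes without a registry number. Among 615 genes with an older number (or a let-7 name) 48.3% were detected, and among 501 with a later number 14.8%. A further 5 genes reached 10 counts in 1 library only, 18 had fewer than 10 in each, and 9 had 0 in both. At least 1 count in each library was seen for 41 of the 57, or 71.9%, against 29.2% of all genes and 58.4% of those with an older number. For those with a later number it was 41.9%, with 64.7% in the block Mir6896 to Mir7094 and 26.7% outside it.

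Levels were low next to those of older genes. Only 4 of the 57 (7.02%) averaged 100 CPM or more, against 33.0% of the genes with an older number and 1.20% of those with a later one. The median log2(CPM + 1) over all 57 was 1.97 in replicate 1 and 1.36 in replicate 2. It was 2.14 and 1.93 for the older genes and 0.31 and 0.00 for the later ones. Among detected genes alone, the median of the mean CPM was 16.7 for this set, 380 for the older genes and 6.96 for the later ones. Reads come from whole mature forms of similar size, so CPM was not divided by hairpin length. In bulk tissue a low level in all cells and a high level in a few cells cannot be told apart.

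Together the 57 genes held 11850 counts in replicate 1 and 8402 in replicate 2, or 0.288% (exact Clopper-Pearson 95% interval 0.283 to 0.293%) and 0.263% (0.258 to 0.269%) of the counted reads. The mean share was 0.276% ± 0.0176 (SD, n = 2). These intervals reflect counting error alone; PCR copies of 1 molecule cannot be told from separate molecules here. The 4 most abundant genes made up 84.8% ± 0.334 of these counts, and the other 53 together held 0.0420% ± 0.00176 of all counted reads.

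**Figure D1:**
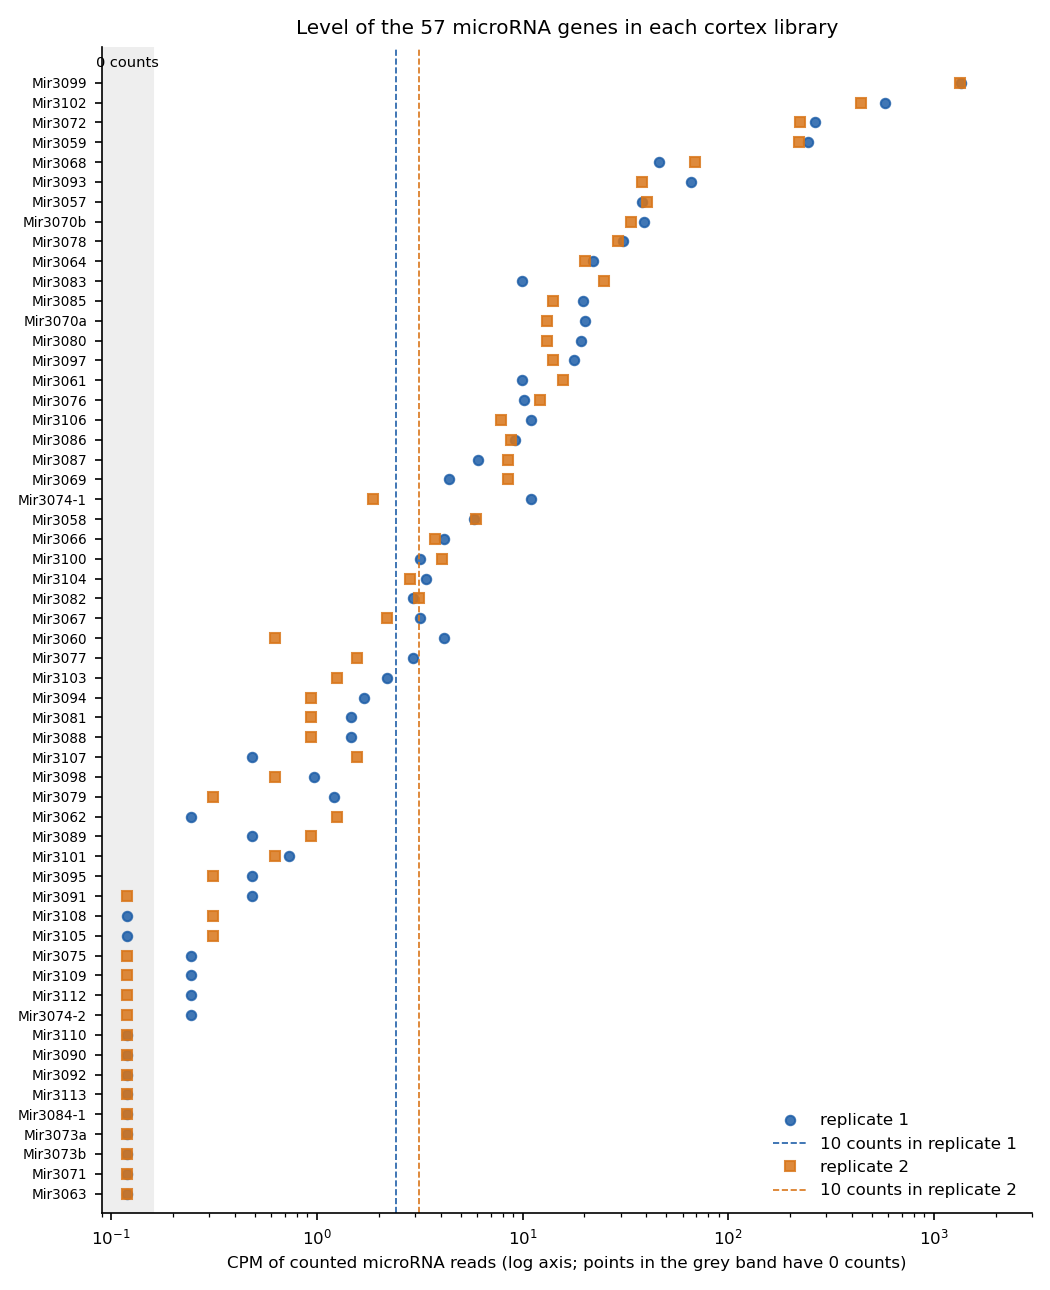
CPM (log axis) of each of the 57 genes in the 2 cortex libraries, ordered by mean; dashed lines mark 10 counts in each library and the grey band holds genes with 0 counts. Mir3099 stands alone at 1349 CPM, 4 genes lie above 100 CPM, and 9 genes have 0 counts in both libraries.

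Mir3099 was the most abundant, with 5600 counts in replicate 1 and 4263 in replicate 2 (1362 and 1336 CPM; mean 1349 ± 18.2, SD, n = 2), and ranked 94th of all microRNA genes by mean CPM. It alone held 49.0% ± 2.46 of the counts of the 57 genes. The libraries gave nearly the same level. Mir3099 (ENSMUSG00000092815.1; mm10 chromosome 7, 6803587 to 6803670, plus strand) lies in an intron of 169340 bases of Usp29, an imprinted gene named for a ubiquitin-specific peptidase. No older microRNA gene was near it: the closest, Mir295, was 3582745 bases away.

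Mir3102 followed, with 2372 counts in replicate 1 and 1418 in replicate 2 (577 and 445 CPM; mean 511 ± 93.6, SD, n = 2). Its hairpin (chromosome 7, 100882306 to 100882409, minus strand) coincides with a complete intron of 104 bases of Arhgef17. Mir3072 overlaps an exon of Mirg, a long non-coding RNA gene (chromosome 12, 109747878 to 109747960, plus strand), and had 1092 and 714 counts (266 and 224 CPM). Mir3059 lies deep in an intron of Mgat4c, which encodes a glycosyltransferase-family protein (chromosome 10, 101772692 to 101772772, plus strand), and had 1007 and 706 counts (245 and 221 CPM). Mir3072 was slightly above Mir3059 in both libraries, with means of 245 ± 29.5 and 233 ± 16.7 CPM (SD, n = 2), and this difference was not tested.

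Below these lay a wide gap. The next detected genes were Mir3068 (46.0 and 69.3 CPM), which overlaps the non-coding gene Gm29362 within an intron of Alkbh1 and shares its name with a small nucleolar RNA gene annotated there, and Mir3093 (65.7 and 38.2 CPM). Mir3057 (37.9 and 40.1 CPM), which overlaps an exon of Apba3, was nearly level between the libraries. In all, 13 detected genes averaged 10 to 100 CPM and 8 averaged less than 10. Among the latter were Mir3106 in an intron of Csmd1 (45 and 25 counts), Mir3058 in an intron of Nudt4 (24 and 19 counts), Mir3066 in an intron of Nol10 (17 and 12 counts) and Mir3069 in an intron of Snhg10, a small nucleolar RNA host gene (18 and 27 counts). Mir3061, which overlaps an exon of Ppp2ca, the catalytic subunit gene of protein phosphatase 2A, had 41 and 50 counts, and Mir3080 in Tcf20 had 79 and 42.

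At the detection limit, Mir3082 (12 and 10 counts) and Mir3100 (13 and 13) were just inside it, and Mir3104 (14 and 9), Mir3067 in Smoc1 (13 and 7) and Mir3077 (12 and 5) just outside. Mir3060, in an intron of Rnf215, had 17 counts in replicate 1 and 2 in replicate 2. Single counts made up the tail: Mir3075, Mir3109, Mir3112 and Mir3074-2 had 1 count in replicate 1 and 0 in replicate 2, Mir3108 and Mir3105 the reverse. The 9 genes with 0 counts were Mir3063, Mir3071, Mir3073a, Mir3073b, Mir3084-1, Mir3090, Mir3092, Mir3110 and Mir3113. For the 6 of these whose sequence had no second position found, 3 counts were taken as the most that a 0 allows. That equals 0.730 and 0.940 CPM in replicates 1 and 2. Second positions were sought among microRNA hairpins and mature forms only, so the limit does not cover copies elsewhere in the genome. For Mir3084-1, Mir3110 and Mir3113 a count of 0 sets no limit. Both mature forms of Mir3084-1 are also listed by RefSeq at a second locus.

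Position relative to older microRNA genes (numbered below Mir3057, or let-7) divided the set into 3 unequal groups. Opposite an older gene, overlapping it on the other strand, lay 4 genes: Mir3071, Mir3074-1, Mir3074-2 and Mir3107. Within 10 kb of an older gene, without overlap, lay 5: Mir3070a, Mir3070b, Mir3072, Mir3078 and Mir3093. The remaining 48 lay apart. None of the 4 opposite genes was detected in both libraries, all 5 beside an older gene were, and 20 of the 48 apart were (41.7%). These counts are small, and 3 of the 4 opposite genes are of uncertain count.

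The mature forms of 2 opposite loci are shown in pairs, since each form lies across from one of its partner and overlaps it by 19 or 20 bases.
miR-136-5p: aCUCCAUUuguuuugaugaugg
miR-3071-3p: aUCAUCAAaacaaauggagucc
miR-136-3p: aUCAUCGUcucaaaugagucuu
miR-3071-5p: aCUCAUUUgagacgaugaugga
miR-24-3p: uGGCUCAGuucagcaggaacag
miR-3074-5p: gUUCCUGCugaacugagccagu
miR-24-2-5p: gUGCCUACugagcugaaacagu
miR-3074-2-3p: uGUUUCAGcucaguaggcac
Although these pairs occupy the same bases, no seed is shared across the strands in the forms shown. RefSeq listed no mature form for Mir3107, so seeds at the Mir486 locus could not be compared. miR-24-3p and miR-3074-5p each occur at 2 loci, Mir24-1 with Mir3074-1 and Mir24-2 with Mir3074-2, and reads that match both loci were given to neither.

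In each pair the older strand held more counts in both libraries. These values need the stranded counts: in the column that ignores strand, all 8 genes of the 4 pairs stand at 0. Mir136 (chromosome 12, 109595327 to 109595388, plus strand) had 1079 and 502 counts, and Mir3071 on the minus strand, which overlaps the annotated exon of Rtl1, a retrotransposon-derived imprinted gene, had 0 in both. Against the limit of 3 counts per library, the 1079 and 502 counts of Mir136 were at least 360-fold higher in replicate 1 and at least 167-fold higher in replicate 2. Mir486, a microRNA known from erythroid cells, had 100 and 83 counts and Mir3107 opposite it 2 and 5. Mir3107 thus held 1.96% of the pair in replicate 1 and 5.68% in replicate 2, with exact 95% intervals of 0.238 to 6.90% and 1.87 to 12.8%. The Mir3107 hairpin holds a stretch of 22 bases that recurs in its own reverse complement, a longer one than in 96.9% of all hairpins. Reads that lie within it match more than 1 position and were given to no gene. Mir486 also holds a stretch found at another position among the microRNA hairpins, so its counts are uncertain, as are those of Mir3107. The shares and intervals cover only reads given to 1 of these genes. They do not measure how all reads of the locus divide between the strands. How far the loss of reads with several positions lowered the counts of either strand was not tested.

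Mir24-2 had 196 and 154 counts and Mir3074-2 opposite it 1 and 0. The counts of Mir24-1 were 118 and 171, and those of Mir3074-1, in an intron of Fancc, were 45 and 6. Mir3074-1 therefore held 27.6% of its pair in replicate 1 (95% interval, exact, 20.9 to 35.1%) and 3.39% in replicate 2 (1.25 to 7.23%), and these intervals do not overlap. These are the reads that matched a single locus, so they do not measure miR-24 or miR-3074 as a whole. The other genes of the same clusters, at most 641 bases away, were higher. Mir23b had 58911 and 48789 counts and Mir27b 4986 and 5332, while Mir23a had 27609 and 16424 and Mir27a 331 and 367. All 4 hold stretches found in a further microRNA gene, so their counts are uncertain.

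**Figure D2:**
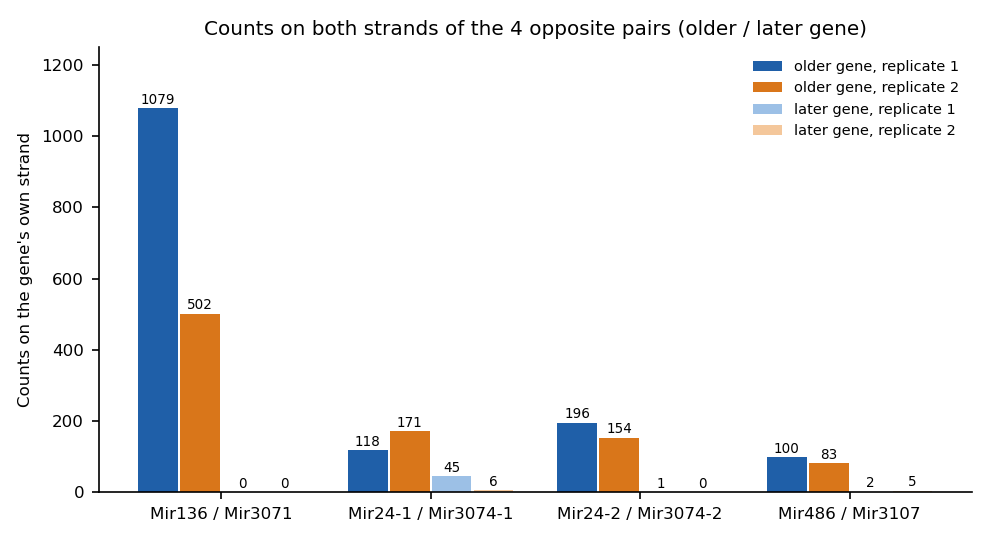
Counts on the own strand of each gene, in each library, for the 4 pairs of an older and a later gene on opposite strands; the number above each bar is its count. The older gene is higher in every pair and library, and only Mir3074-1 in replicate 1, at 45, rises visibly above the axis among the later genes.

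One more overlapping pair involves no older gene. Mir3073a, in an intron of Aspg, and Mir3073b on the other strand (chromosome 12, 112109238 to 112109322 and 112109250 to 112109309) had 0 counts in both libraries. Their 5p forms share the seed UGGUCAC.

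Of the genes beside older ones, 3 lie between Dlk1 and Dio3 on chromosome 12, an imprinted region with a large maternally expressed microRNA cluster; Mir3071 lies there too. Together these 4 held 0.0298% ± 0.00381 of counted reads (SD, n = 2). Mir3070a had 83 and 42 counts (20.2 and 13.2 CPM) and Mir3070b 160 and 108 (38.9 and 33.9 CPM). Within 10 kb of either lie 10 older genes, with a median of 2066 CPM over all 10 and Mir127 highest at 39262. Of these 10, 9 were detected. All 9 were above Mir3070a and Mir3070b. Both paralogs carry the same 5p form, so reads of it that matched both were lost, and their counts are uncertain.

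Mir3072, at the downstream end of the Mirg cluster, reached the range of its neighbours. It was above Mir410 (162 and 200 CPM), the closest older gene at 4082 bases, in both libraries, and near Mir377 (289 and 203 CPM), while 6 other older genes within 10 kb were higher in both libraries, up to Mir541 at 11021 CPM.

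The last 2 genes of this kind lie beside neuronal microRNAs with 3 genomic copies each. Mir3078 overlaps an exon of Mir124a-1hg, 443 bases from Mir124a-1 (chromosome 14, 64591185 to 64591271, plus strand). It had 127 and 93 counts, against 9 and 19 for Mir124a-1. Mir3093, in an intron of the non-coding gene Gm3764 and 340 bases from Mir9-1 (chromosome 3, 88215171 to 88215257, plus strand), had 270 and 122 counts, against 44 and 84 for Mir9-1. Both later genes were therefore counted above the older gene beside them, in both libraries. RefSeq lists both arms of miR-9 at 3 loci, and reads that match several positions are in no gene's count, whereas Mir3078 and Mir3093 hold no 18-base stretch found in another microRNA hairpin. The counts thus give no order of abundance between Mir3093 and miR-9, or Mir3078 and miR-124.
miR-3093-5p: cGCACCCCgcggagcucacacu
miR-3093-3p: uGUGGACAccgugggagguugg
miR-9-5p: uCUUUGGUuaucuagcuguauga
miR-9-3p: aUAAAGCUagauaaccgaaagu
The miR-3093 and miR-9 forms are shown because their hairpins are neighbours with different seeds.

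**Figure D3:**
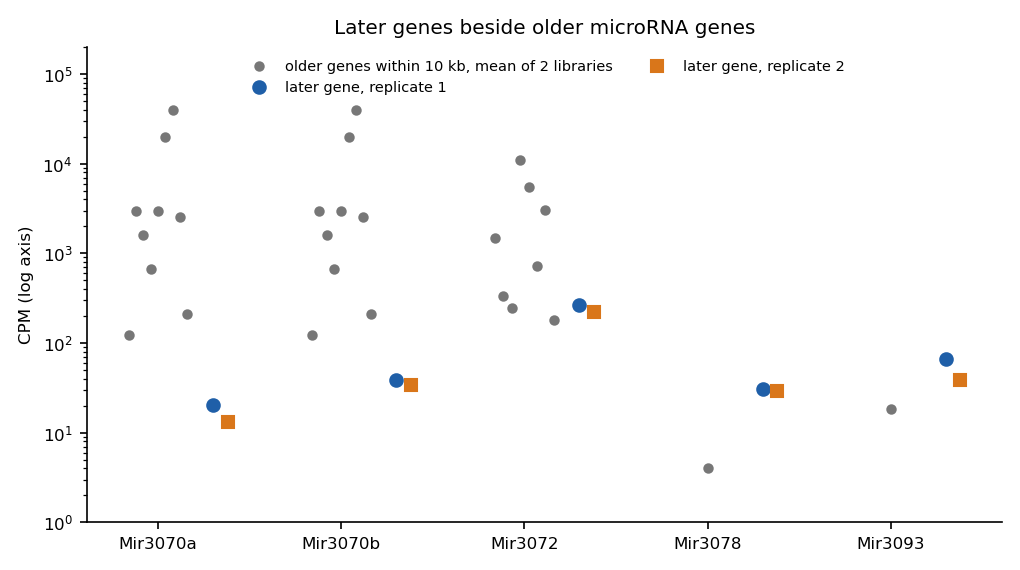
CPM (log axis) of the 5 genes beside older microRNA genes, as coloured points per library, and of the older genes within 10 kb with any count, as grey points giving the mean of 2 libraries. Mir3070a and Mir3070b lie below all their detected neighbours, Mir3072 lies within their range, and Mir3078 and Mir3093 lie above the copies of miR-124 and miR-9 beside them.

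A feature the symbols do not encode was the position within introns. The hairpins of 11 of the 57 genes (19.3%) end within 2 bases of the 3′ end of an intron on the same strand, against 10.3% of all 2202 microRNA genes, 1.14% of those with an older number and 40.7% of those with a later one. Most of the later genes of this kind, 188 of 204, belong to the block Mir6896 to Mir7094, and among the other 300 later genes the share was 5.33%, below that of the set. In Mir3102 both ends coincide with the intron, as in a mirtron, and in the other 10 between 23 and 1811 bases of intron precede the hairpin. These hairpins were short, with a median of 64 bases against 84.5 for the other 46 genes.

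The mature form nearest the intron end finished on its last base in 7 of the 11 and within 1 base in all 11. They are shown with the last 2 bases of the intron in capitals where these fall within the mature form; for 3 of them, Mir3102, Mir3064 and Mir3087, the intron runs 1 base further and a single base is in capitals.
miR-3102-3p (Arhgef17): gagcaccccauuggcuacccacA
miR-3064-3p (Ddx5): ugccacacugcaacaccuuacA
miR-3097-3p (Rgs12): cucagaccuuucuaccugucAG
miR-3076-3p (Tkt): cgcacucuggucuucccuugcAG
miR-3087-3p (Abca2): uaacucacugucauguccucA
miR-3100-3p (Dmpk): cugugacacacccgcucccAG
miR-3104-3p (Brsk2): acgcucugcuuugcucccccAGa
miR-3082-3p (Stub1): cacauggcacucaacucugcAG
miR-3077-3p (Sap18): cugacucccugcuucuccgcAG
miR-3103-3p (BC017158): uaaccucugauccuucccacAG
miR-3094-3p (Nfx1): ccuuuaaauuguguccucaAG
In the 8 that hold both bases these are AG, the bases that end most introns.

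All 11 intron-end genes had counts in both libraries, and 7 were detected (63.6%). Of the 226 such genes among all microRNA genes 24.8% were detected. Among those with an older number it was 5 of 7 (71.4%), and among the 204 with a later number 21.6%. After Mir3102 the levels of the 11 genes were modest. Mir3064, at an intron end of the RNA helicase gene Ddx5, had 91 and 64 counts (22.1 and 20.1 CPM), Mir3097 in Rgs12, a regulator of G protein signalling, 73 and 45, Mir3076 in Tkt, the transketolase gene, 42 and 39, and Mir3087 in the transporter gene Abca2 25 and 27. The lowest was Mir3094 in Nfx1, with 7 and 3 counts. Of the other 46 genes 18 were detected (39.1%), and 9 had 0 counts. The difference between these groups was not tested. Levels overlapped broadly, from 1.32 to 511 CPM at intron ends and from 0 to 1349 CPM elsewhere.

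**Figure D4:**
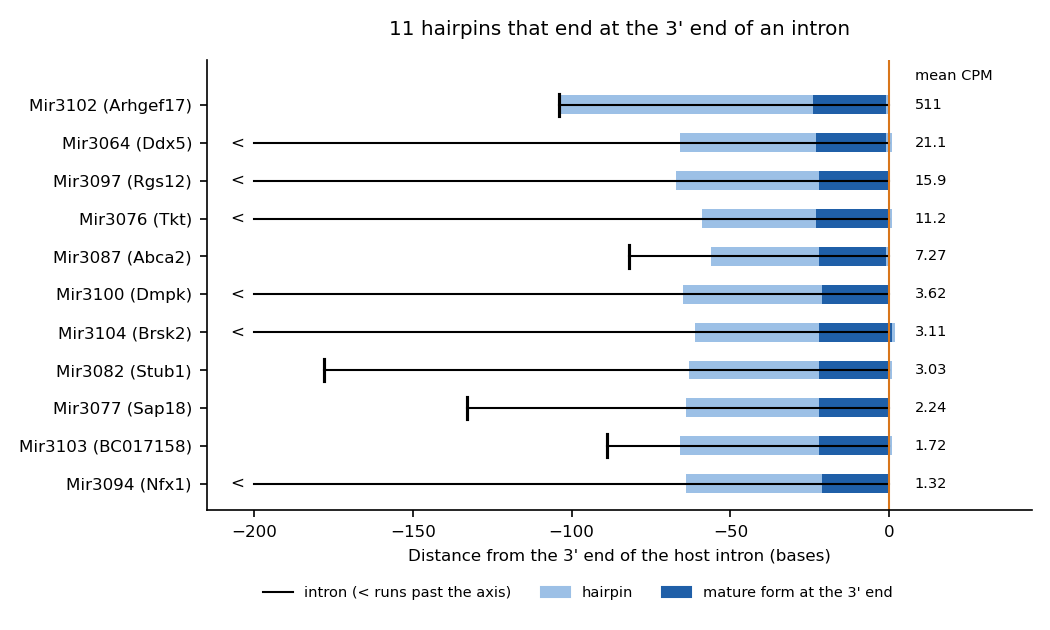
Map of the 11 hairpins (light blue) against the 3′ end of the intron they end in (orange line, 0 on the axis in bases), with the mature form nearest that end in dark blue, the intron as a black line and mean CPM at the right. Every dark blue bar ends within 1 base of the line, and only the Mir3102 hairpin reaches the start of its intron.

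Hosts were mostly protein-coding. In GENCODE M21, 28 of the 57 hairpins lie in introns only, 19 overlap an exon of at least 1 transcript on their strand, including transcripts that keep an intron, and 10 have no host on their strand. Each hairpin was assigned to hosts with an exon over it or, failing these, to hosts with an intron there. A protein-coding host was assigned to 41, of which 16 were detected (39.0%). A non-coding one was assigned to 6, of which 5 were detected: Mir3068, Mir3069, Mir3072, Mir3078 and Mir3093. Mir3068 was therefore counted under the non-coding Gm29362 and not under Alkbh1, in whose intron it also lies. With no host, 4 of 10 were detected: Mir3070a, Mir3070b, Mir3083 and Mir3085.

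The 2 libraries were set against each other gene by gene with a two-sided exact binomial test on the counts of all 406 detected genes, with Benjamini-Hochberg adjustment over them. It compares 2 libraries with read sampling only, and no conditions. Of the 25 detected genes 6 passed an adjusted p of 0.05, against 58.1% of all detected genes; most of the 25 have few counts, which limits what the test can show. Higher in replicate 2 were Mir3083 (41 and 79 counts; log2 ratio of CPM 1.31; adjusted p = 3.02e-06, exact binomial test) and Mir3068 (189 and 221 counts; 0.59; adjusted p = 7.72e-05, exact binomial test). The share of all detected genes called higher was 23.4%. Lower in replicate 2, a direction called for 34.7% of all detected genes, were Mir3093 (270 and 122 counts; log2 ratio -0.78; adjusted p = 1.06e-06, exact binomial test), Mir3102 (-0.38; adjusted p = 1.75e-14), Mir3072 (-0.25) and Mir3070a (-0.62; adjusted p = 0.0417).

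The split into 2 higher and 4 lower depends on scaling. TMM library sizes raise every log2 ratio by 0.15 and DESeq2 size factors by 0.12, and with either 5 were higher and 2 lower, where 53.9% of all detected genes were called. Mir3070a (adjusted p = 0.144 with TMM) and Mir3072 (0.224) were then no longer called, and Mir3061, Mir3069 and Mir3099 became called as higher. Mir3083, Mir3068, Mir3093 and Mir3102 kept their call and direction under both scalings. Only Mir3083 was over 2-fold apart, against 9.85% of all detected genes; with TMM (log2 ratio 1.10) or DESeq2 (1.07) scaling Mir3069 was too. The median absolute log2 ratio was 0.33 for the 25 genes and 0.30 for all 406. With no count minimum, the strongest differences in genes that were not detected were Mir3074-1 (45 and 6 counts; adjusted p = 6.26e-06, exact binomial test) and Mir3060 (17 and 2 counts; adjusted p = 0.0144, exact binomial test), both lower in replicate 2.

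**Figure D5:**
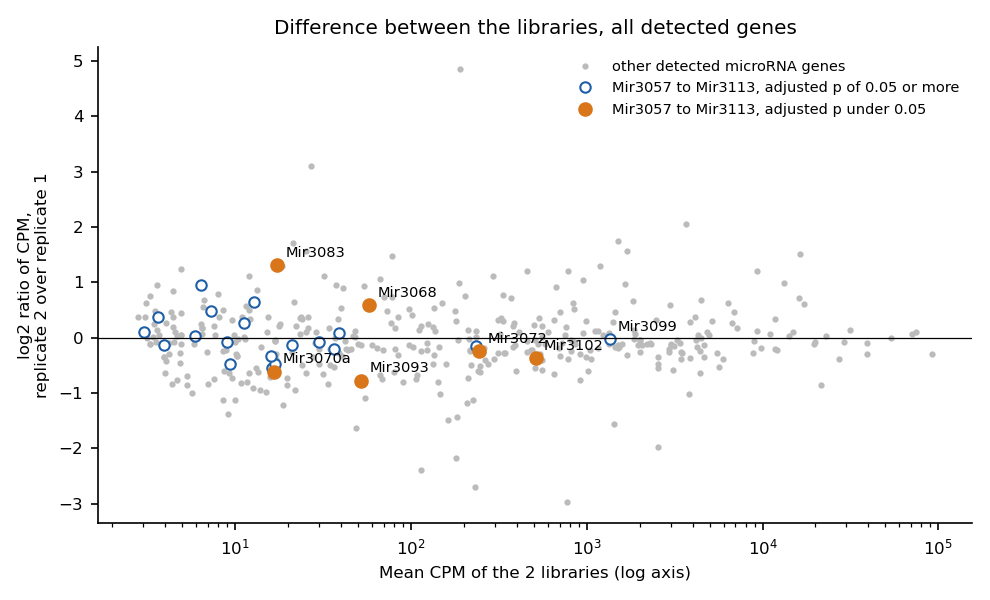
Log2 ratio of CPM, replicate 2 over replicate 1, against mean CPM (log axis) for the 406 detected genes, with the 25 detected genes from Mir3057 to Mir3113 in colour and those with an adjusted p under 0.05 filled. Mir3083, at 1.31, is the only one of them beyond a log2 ratio of 1.

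Reads on the strand opposite these genes came almost wholly from loci with an older gene there. Where no microRNA gene is annotated opposite, which holds for 51 of the 57, such reads numbered 45 in replicate 1 and 41 in replicate 2, of 154 and 107 over the 2138 microRNA genes of this kind. Of the 51, 3 had any, against 44 of the 2138: Mir3083, Mir3086 (5 and 2) and Mir3105 (1 and 0).

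The locus of Mir3083 (chromosome 17, 26948056 to 26948119, minus strand) held 39 opposite-strand counts in each library beside 41 and 79 on the annotated strand. The opposite strand thus held 48.8% of its counts in replicate 1 and 33.1% in replicate 2, with exact 95% intervals of 37.4 to 60.2% and 24.7 to 42.3%. Its 64-base hairpin is shown with capitals for the 16 bases at each end, which are exact complements of each other, so that each also occurs on the other strand.
Mir3083 hairpin: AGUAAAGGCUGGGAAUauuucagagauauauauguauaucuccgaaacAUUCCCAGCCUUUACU
miR-3083-5p: aGGCUGGGaauauuucagagau
miR-3083-3p: uCCGAAACauucccagccuuua
In the mature forms capitals mark the seed. This stretch was longer than the longest such stretch in 94.6% of the 2202 hairpins. Whether it bears on the opposite-strand counts was not tested.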

How the data were processed

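Short RNAs of 2 cortex libraries were sequenced. The authors deposited raw read counts per microRNA gene in 3 columns (strand ignored, strand of the gene, opposite strand) after 4 rows for reads in no gene. The readme texts beside the files name mm10 and GENCODE M21. For the aligner and counter, a name and version is not given in the sources used here. Counts on the gene's strand were used, and CPM is scaled to their sum. Symbols, positions and hairpins came from GENCODE M21, mature forms from RefSeq (GRCm38.p6). Introns are those of same-strand transcripts of other genes. Shares have exact Clopper-Pearson 95% intervals. The split test, a two-sided exact binomial test adjusted over all detected genes, was tested on simulated data. The simulated counts varied by read sampling only, which the test assumes, so they cannot show how it behaves under other spread between libraries. Over 2 libraries the smallest two-sided p of a sign-flip test is 0.5, so no test over samples is given. Named were genes with at least 10 counts in either library, opposite genes with partners, the nearest older genes, and genes with most opposite-strand reads or none; other low genes were named after their values were seen. The range of numbers that defines the members, and all lists, were chosen with earlier results of these data known. Python 3.11.15, SciPy 1.17.1, R 4.3.3, edgeR 4.0.16 (TMM) and DESeq2 1.42.0 (size factors) were used. Alternatives were strand-ignored counts, other minimums, pseudocounts, scalings, distances and thresholds, and single libraries. An annotation at 1 locus is not reported here.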

Additional observations from a re-analysis of the deposited data

Results flagged for a closer look

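Counts on the opposite strand lie outside the values used for levels. At 2 genes with no microRNA gene annotated there, they passed 3 counts in at least 1 library. Mir3083 had 39 in replicate 1 and 39 in replicate 2, the most of the 2138 microRNA genes of this kind. Mir3086, in an intron of Hspa12a, had 5 in replicate 1 and 2 in replicate 2 beside 38 and 28 counts on its own strand, or 11.6% (exact 95% interval 3.89 to 25.1%) and 6.67% (0.818 to 22.1%) of its counts. With 2 libraries in 1 group, single samples could not be checked for standing apart.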

How the results depend on the processing

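No paired analysis was possible because there was only 1 group. With a minimum of 1 count in each library 41 of the 57 genes were detected, and with a minimum of 50 only 10. The share of counts was 0.297% with strand ignored, 0.101% of all reads and 0.141% without Mir3099. The opposite-strand level fell from 11.9 to 1.04 CPM without Mir3083. The median log2 level over the 57 genes, 1.67, was 1.17 with a pseudocount of 0.1 and 3.61 with one of 10, by construction. With no tolerance 6 hairpins ended at an intron end, and with 5 bases 11; these settings, and leaving out genes of uncertain sequence (23 detected), were chosen after seeing the data. Mir3099 reversed, from a log2 ratio of -0.03 to 0.12 with TMM and 0.10 with DESeq2 size factors. Leaving out 1 library gave 25 to 30 genes detected, shares of 0.263 to 0.288%, median levels of 1.36 to 1.97 and opposite-strand levels of 10.9 to 12.9 CPM. The number opposite or beside older genes was 6 within 1 kb and 12 within 50 kb. Over the other settings 4 to 7 genes differed between the libraries. With a minimum of 50 these were 4 of 10 tested, where 74.6% of all genes tested were called. With no minimum, which took any count in either library, they were 7 of 48, where 31.0% were called. Depth limits the genes under 10 counts, whose order cannot be read.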
